A study of Mus musculus with 12 samples.

Results

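Akr1c18 and 5 related aldo-keto reductase genes, Akr1c6, Akr1c12, Akr1c13, Akr1c14 and Akr1b8, were examined in mouse superior cervical ganglion (SCG) cells. The members were taken by gene symbol, as every probe set whose single platform symbol was one of these names, and 6 of the 18193 genes measured were members. Each member had 1 such probe set. Akr1c18 was picked from these data for its higher level in 3D than in 2D culture, so its differences between 3D and either other group are given as description, with no test. Its 5 relatives are of the same gene family, and they too were chosen with earlier results of these data known.

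The SCG is a sympathetic ganglion of the neck, and it came from CD1 mice, for which no engineered allele is named. The 3 groups had 4 biological replicates each, on 12 arrays in all. The 2D group was SCG cells on a flat dish, polystyrene by the labels and also glass by the methods, the 3D group was SCG cells in porous polystyrene scaffolds, and the tissue group was freshly dissected SCG that was not cultured. The labels give an age of 21 days for all 12 samples, whereas the methods speak of neonatal mice, and which of these holds was not settled here. Both cultures were collagen-coated and fed with serum and nerve growth factor, which the tissue was not, so culture and its additives cannot be told apart in any comparison with tissue. All samples were bulk RNA of mixed ganglion cells, in which fewer cells of a type and less RNA per cell cannot be told apart.

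Aldo-keto reductases of the Akr1 family are mostly monomeric enzymes that use NADPH to reduce aldehydes and ketones to alcohols. The mouse Akr1c enzymes act on steroids and other carbonyls. Akr1c18 is the 20-alpha-hydroxysteroid dehydrogenase that turns progesterone into its weakly active 20-alpha-hydroxy form, best known from the corpus luteum before birth. Akr1c14 is a 3-alpha-hydroxysteroid dehydrogenase that makes neuroactive steroids such as allopregnanolone, and Akr1c6 is a hepatic 17-beta-hydroxysteroid dehydrogenase. Akr1b8 belongs to the aldose reductase branch and was first described as a gene induced by fibroblast growth factor.

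The Akr1c genes lie in 1 cluster on chromosome 13. In RefSeq the order of protein-coding genes is Akr1c14, Akr1c18, Akr1c13, Akr1c19, Akr1c12, Akr1c6, Akr1c20, Akr1c21 and Akr1e1, flanked by Ucn3 and Klf6. Akr1b8 is on chromosome 6, between Akr1b3 and Akr1b10. All 6 members had a promoter in the RefSeq table of build GRCm38.p6. Below are the 250 bases before the annotated start, read 5′ to 3′ on the strand of the gene, for Akr1c18, the member that stood apart in 3D, and for Akr1c13 and Akr1c12, near-copies of each other that share a probe set. The promoter of Akr1c18 was chr13:4150647-4150896 on the minus strand, that of Akr1c13 was chr13:4190937-4191186 on the plus strand, and that of Akr1c12 was chr13:4279400-4279649 on the minus strand. Capitals mark the GC box in Akr1c18 and, in the other two, the bases that differed or had no partner when that pair was aligned.
Akr1c18: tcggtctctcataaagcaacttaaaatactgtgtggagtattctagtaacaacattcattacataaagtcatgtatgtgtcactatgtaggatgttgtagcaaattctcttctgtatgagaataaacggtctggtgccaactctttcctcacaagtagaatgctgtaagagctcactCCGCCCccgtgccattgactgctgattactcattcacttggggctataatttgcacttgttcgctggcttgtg
Akr1c13: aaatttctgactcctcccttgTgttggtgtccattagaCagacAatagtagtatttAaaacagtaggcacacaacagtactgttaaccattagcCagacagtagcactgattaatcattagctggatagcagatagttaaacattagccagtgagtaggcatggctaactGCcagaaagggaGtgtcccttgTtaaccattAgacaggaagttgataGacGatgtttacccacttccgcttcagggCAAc
Akr1c12: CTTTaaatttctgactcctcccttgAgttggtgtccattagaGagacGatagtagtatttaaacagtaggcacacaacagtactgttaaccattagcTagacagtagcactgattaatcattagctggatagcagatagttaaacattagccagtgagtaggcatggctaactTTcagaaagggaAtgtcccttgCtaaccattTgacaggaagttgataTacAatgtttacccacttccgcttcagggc

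In the alignment of Akr1c12 with Akr1c13, 235 of 250 bases (94.0%) were identical and 11 were mismatched. No other pair of members came near this. The promoter of Akr1c18 matched those of the other Akr1c members at between 59.2% (Akr1c6) and 64.4% (Akr1c14) of bases, and that of Akr1b8 at 58.4%. Gapped alignment of Akr1b8, on the other chromosome, with the Akr1c members gave 54.4% to 58.4%. No unrelated promoters were aligned, so whether identities near 60% exceed those of unrelated sequences was not tested.

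The promoter of Akr1b8, the member with the widest gap between culture and tissue, was chr6:34353896-34354145 on the plus strand. Capitals mark a match to the TATA box motif at bases 92 to 97, read on the other strand, and 2 adjoining GC boxes at bases 202 to 213.
Akr1b8: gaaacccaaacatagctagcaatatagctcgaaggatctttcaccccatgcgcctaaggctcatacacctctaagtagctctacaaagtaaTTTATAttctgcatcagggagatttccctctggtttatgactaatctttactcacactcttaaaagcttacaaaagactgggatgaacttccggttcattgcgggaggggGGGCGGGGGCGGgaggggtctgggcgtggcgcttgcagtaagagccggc

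A total of 6 motifs were searched on both strands, chosen after the sequences had been seen: the antioxidant response core TGACNNNGC, the AP-1 site TGANTCA, the STAT site TTCNNNGAA, the CCAAT box, the GC box CCGCCC and the TATA box TATAAA. None of the 6 promoters held the first 3, which were present in 10.2%, 6.75% and 7.02% of 32851 RefSeq promoters of the same length. Akr1c18 held 1 GC box at bases 178 to 183 of the 250, and 32.7% of all promoters held this motif. Akr1b8 held 2 GC boxes and a match to the TATA box (12.4% of promoters). Akr1c6 held a match to the TATA box at bases 87 to 92 and a CCAAT box. These are matches of letters at any place in the 250 bases, and whether any of them works was not tested. Akr1c14 held a CCAAT box, which 33.8% of promoters held, and Akr1c12 and Akr1c13 held none of the 6 motifs.

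All values are log2 intensities as deposited, after the robust multi-array average (RMA), and a difference of 1 is a 2-fold change. Probe sets differ in how brightly they report, so levels are compared between groups and not between genes. As a guide to dim signal, the lower quartile of all probe sets was between 4.76 and 5.31 on the 12 arrays. Tissue replicates 2 and 3 stood apart from the other arrays, with an SD over probe sets of 2.14 and 1.93 against 2.31 to 2.42 on the rest, and the tissue differences of the members, with the list counts that moved by over 1.5 times, are also given without them.

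Akr1c18 was high in 3D and low in both 2D and tissue. On the 2D arrays its log2 level was 6.0, 6.11, 6.54 and 6.96 for replicates 1 to 4. On the 3D arrays it was 8.47, 9.02, 9.15 and 8.94. In fresh tissue it was 6.11, 6.34, 6.53 and 6.60. Every 3D array was therefore above every 2D and tissue array, while the ranges of 2D and tissue overlapped almost wholly. The group means ± SD (n = 4) were 6.40 ± 0.44 in 2D, 8.90 ± 0.30 in 3D and 6.40 ± 0.22 in tissue.

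The mean of Akr1c18 in 3D lay 2.49 above 2D, a 5.63-fold difference, and ranked 3 of 18193 genes from the top of that comparison. This is the contrast by which the gene was picked. Tissue lay 2.50 below 3D, or 5.66-fold, with the same 3D arrays. The lowest 3D array and the highest 2D array were 1.51 apart, and the lowest 3D array and the highest tissue array were 1.87 apart. Between tissue and 2D the difference was -0.01, with a 95% interval from -0.53 to 0.52 and a limma adjusted p of 0.984. That comparison shares its 2D arrays with the contrast used to pick the gene. The interval leaves room for a change of up to about 0.5 either way, so equal levels were not shown. Without tissue replicates 2 and 3 tissue lay -0.05 from 2D and -2.54 from 3D.

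**Figure D1:**
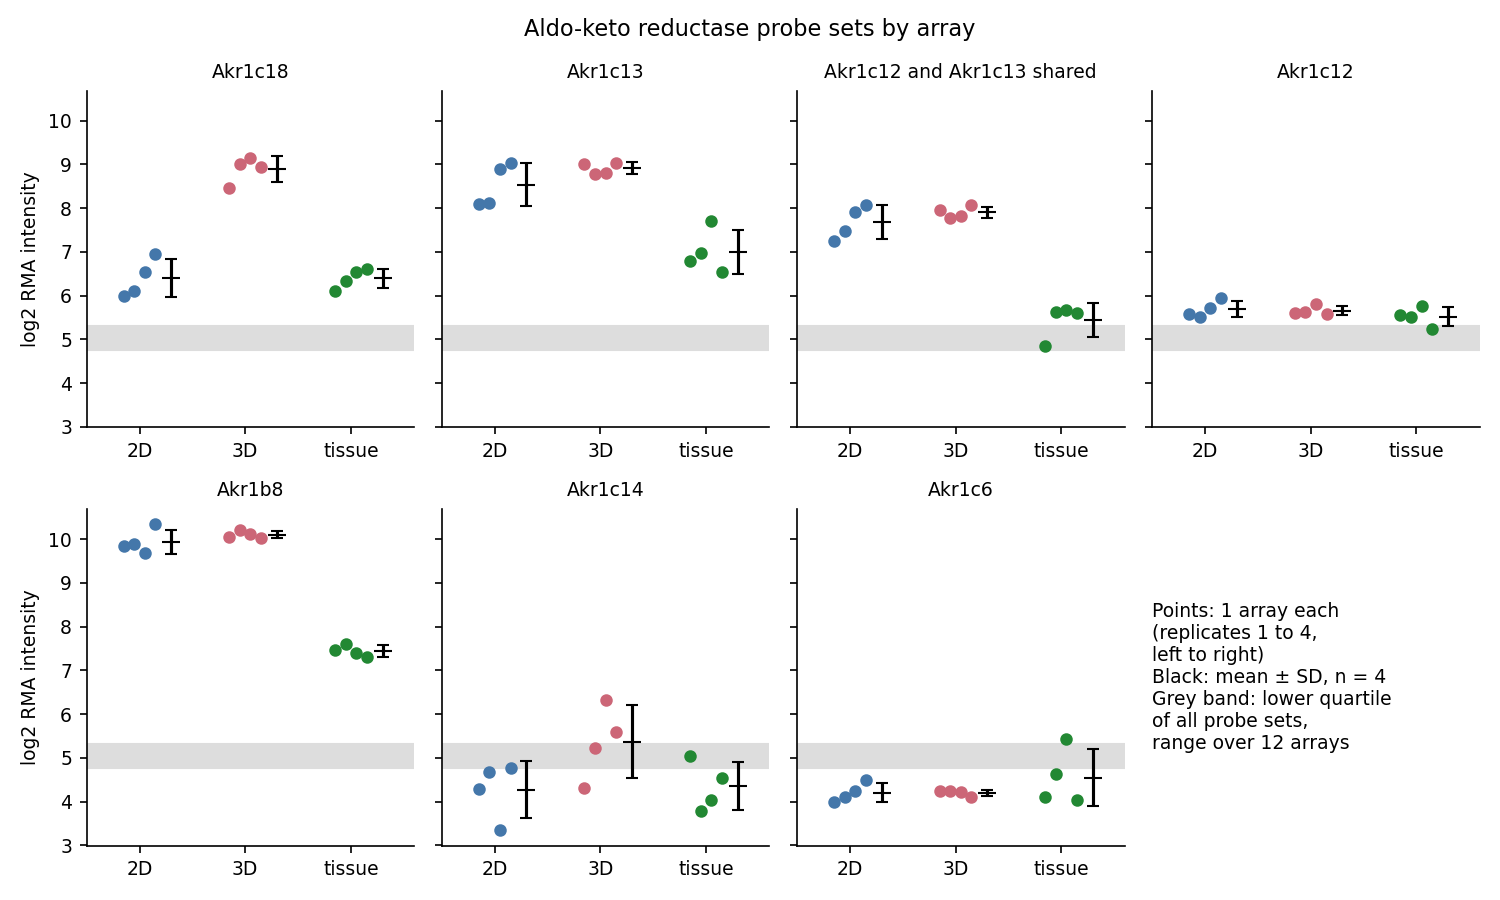
Log2 RMA intensity of each member on each of the 12 arrays, by group, with replicates 1 to 4 from left to right, the mean ± SD (n = 4) in black and the range of the arrays' lower quartiles as a grey band. Akr1c18 sits between 8.47 and 9.15 on the 3D arrays and at 6.96 or lower elsewhere, whereas Akr1c13, the shared probe set and Akr1b8 are high in both cultures and low in tissue.

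Across all genes, limma with Benjamini-Hochberg adjustment passed few differences between 3D and 2D, namely 3 genes as higher (0.0165% of 18193) and 0 as lower (0%). An unadjusted p under 0.05 was reached by 2377 genes, and by 2118 with the unpaired test that the methods name. The count of 3 takes in Akr1c18, which was picked on this contrast, and nothing is read from it for that gene. The other two were Asgr1, a subunit of the asialoglycoprotein receptor, higher by 1.46 with an adjusted p of 0.0170, and Nr4a2, an orphan nuclear receptor, higher by 1.07 with an adjusted p of 0.0330. Both calls were lost with the replicate number as a block, where 0 genes passed. None of the 5 relatives of Akr1c18 passed in either direction. In this comparison the cell type markers were not level. The mean of the 6 markers of satellite and Schwann glia was 11.37 to 11.66 on the 2D arrays and 11.83 to 12.02 on the 3D arrays, without overlap, although 0 of the 6 passed. The mean of the 6 markers of smooth muscle and pericytes was 8.25 to 9.83 in 2D and 8.02 to 8.45 in 3D, with a median difference of -1.01 and 0 of 6 past the test. The 9 sympathetic neuron markers had a median difference of -0.60, with 0 of 9 past the test. Their mean was 10.24 to 11.99 in 2D and 10.46 to 11.41 in 3D. The medians of the fibroblast, macrophage and endothelial markers were 0.03, 0.05 and -0.02. The part of any of these cell types in the level of Akr1c18 was not tested.

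Akr1c18 is best known from steroid-making cells, and no marker of those cells passed. The mean of 8 markers, was 5.66 to 5.87 in 2D, 5.72 to 5.86 in 3D and 5.74 to 6.50 in tissue, and 0 of 8 passed in any of the 3 comparisons. Star, which carries cholesterol into mitochondria, was at 6.57 to 7.19 in 2D, 6.66 to 6.85 in 3D and 6.81 to 7.46 in tissue, above the arrays' medians of 6.34 to 6.53. Cyp11a1, the enzyme that starts steroid synthesis from cholesterol, was at 4.31 to 4.60 in 2D, 4.42 to 4.70 in 3D and 4.41 to 4.79 in tissue, at or under the lower quartile of the arrays.

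Akr1c13 stood between Akr1c18 and Akr1c19 in the cluster but followed another pattern, being high in both cultures and lower in tissue. Its log2 level was 8.10, 8.12, 8.90 and 9.04 in 2D and 9.01, 8.78, 8.80 and 9.04 in 3D. In tissue it was 6.78, 6.97, 7.70 and 6.54. No tissue array reached the lowest culture array. Tissue was lower than 2D by a difference of -1.54 ± 0.31 (SE), 2.91-fold, with a limma adjusted p of 0.0104. Against 3D the difference was -1.91 ± 0.24 (SE), 3.76-fold, with an adjusted p of 0.000517. Between 3D and 2D it was 0.37, with an interval from -0.14 to 0.88, and did not pass (adjusted p = 0.570). Without tissue replicates 2 and 3 the differences from 2D and 3D were -1.88 and -2.25.

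The probe set that the platform assigns to both Akr1c12 and Akr1c13 moved the same way. It read 7.24, 7.48, 7.92 and 8.07 in 2D, 7.95, 7.77, 7.82 and 8.06 in 3D, and 4.85, 5.63, 5.68 and 5.60 in tissue. Tissue was below 2D by -2.24 (adjusted p = 0.000829) and below 3D by -2.46 (adjusted p = 5.85e-05) in the limma fit, and the tissue arrays were at or near the lower quartile. This probe set cannot say which of the genes it reports, and it was not counted as a member.

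The probe set assigned to Akr1c12 alone was dim, and its groups overlapped. It was at 5.58, 5.52, 5.72 and 5.95 in 2D, 5.61, 5.62, 5.80 and 5.57 in 3D, and 5.55, 5.52, 5.76 and 5.24 in tissue. The differences were -0.04 for 3D minus 2D, -0.18 for tissue minus 2D and -0.13 for tissue minus 3D, and their intervals reached from -0.29 to 0.20, from -0.55 to 0.20 and from -0.46 to 0.19. The smallest of the 3 adjusted p-values by limma was 0.440, while cyclic loess scaling gave -0.39 for tissue minus 3D with an adjusted p of 0.0278. Without tissue replicates 2 and 3 tissue lay -0.30 from 2D and -0.26 from 3D, and neither passed. Whether Akr1c12 and Akr1c13 differed in their response was not tested.

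Akr1b8 had the same pattern as Akr1c13 with closer replicates. It was at 9.84, 9.88, 9.68 and 10.34 in 2D and at 10.05, 10.22, 10.11 and 10.03 in 3D. In tissue it was at 7.47, 7.61, 7.40 and 7.30. The lowest 2D array was 2.07 above the highest tissue array, and the lowest 3D array was 2.42 above it. Tissue was lower than 2D by a difference of -2.49 ± 0.17 (SE), 5.62-fold, with a limma adjusted p of 8.08e-05. Against 3D it was lower by -2.66 ± 0.12 (SE), 6.31-fold, with an adjusted p of 4.19e-06. It ranked 272 from the lowest of 18193 genes against 2D and 275 against 3D. Between the cultures the difference was 0.17, with an interval from -0.14 to 0.48 (adjusted p = 0.674). Leaving out tissue replicates 2 and 3 together gave -2.55 and -2.72.

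Of the 6 genes, 2 passed as lower in tissue than in 2D, Akr1c13 and Akr1b8, and none as higher, where 14.3% of all genes tested passed as lower and 9.87% as higher. Against 3D the same 2 of the 5 relatives passed as lower and none as higher, against 20.1% and 15.5% of all genes. The comparisons share the 4 tissue arrays. Counts out of 5 or 6 genes are given here as a description. The median difference over all genes was 0.03 in both, and it moved to 0.31 in both when each array was centred on its brighter probe sets. Under that centring Akr1c13 was at -1.26 and -1.64 and Akr1b8 at -2.21 and -2.38 against 2D and 3D, all past the threshold.

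Markers of several cell types moved with these falls, and their counts can be read against the shares of all genes given above. The mean of the 6 glial markers was 9.79 to 11.13 in tissue, below all culture arrays, and 4 of the 6 passed as lower in tissue in each comparison, among them Sox10, the glial transcription factor, by -1.30 against 2D and -1.68 against 3D. The mean of 6 skeletal muscle markers was 5.18 to 5.41 in 2D and 5.20 to 5.36 in 3D, and in tissue it was 5.47, 9.01, 7.82 and 9.13 for replicates 1 to 4. Of these 6, 3 passed as higher in tissue in each comparison. Endothelial markers averaged 6.52 to 7.89 in tissue and 5.50 to 6.53 in culture, and 3 of 6 passed as higher than in 2D and 4 of 6 than in 3D. The mean of 9 sympathetic neuron markers was 10.24 to 11.99 in 2D, 10.46 to 11.41 in 3D and 11.05 to 12.86 in tissue, with 1 of 9 higher in tissue than in 2D (median 0.89) and 6 of 9 higher than in 3D (median 1.43). Fibroblast markers, at 10.86 to 12.44 over the 12 arrays, and macrophage markers, at 7.02 to 9.91, overlapped among all 3 groups. The markers within these 2 lists did not move together, however. Of 8 fibroblast markers, 2 passed as higher and 1 as lower in tissue than in 2D, and 1 as higher and 1 as lower than in 3D. Of 8 macrophage markers, 2 passed as lower in tissue than in 2D, and 4 passed as higher and 3 as lower than in 3D. The 6 smooth muscle and pericyte markers had a median of -1.13 in tissue against 2D, with 1 higher and 2 lower, and of 0.01 against 3D, with 1 of each. The part of any of these shifts in the members' levels was not tested.

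Akr1c14 was dim and variable, with all 2D values and 3 of the 4 tissue values under their arrays' lower quartile. Its log2 level was 4.29, 4.68, 3.34 and 4.76 in 2D, 4.32, 5.23, 6.33 and 5.60 in 3D, and 5.03, 3.79, 4.04 and 4.54 in tissue. On 3 of the 4 3D arrays it was above every 2D and tissue array, and 3D replicate 1 lay within the 2D range. The mean in 3D was 1.10 ± 0.45 (SE) above 2D, rank 86 of 18193 from the top. This did not pass the limma test (adjusted p = 0.399), and its interval reached from 0.09 to 2.12. With the 2D level this close to background, the size of the difference is uncertain. Tissue lay -1.02 from 3D (adjusted p = 0.0909), which became -1.37 with an adjusted p of 0.0287 when 3D replicate 1 was left out. Tissue and 2D differed by 0.08, with an interval from -0.75 to 0.91. Without tissue replicates 2 and 3 tissue lay 0.52 from 2D and -0.59 from 3D, and neither passed.

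Akr1c6 was at or under the lower quartile on nearly all arrays. It was at 3.98, 4.10, 4.23 and 4.49 in 2D, at 4.23, 4.24, 4.21 and 4.10 in 3D, and at 4.10, 4.63, 5.43 and 4.03 in tissue. Its highest value was on tissue replicate 3. Tissue minus 2D was 0.35, with an interval from -0.34 to 1.03, and without tissue replicates 2 and 3 it was -0.14, with -0.13 for tissue minus 3D. Neither this nor its other 2 differences passed (smallest limma adjusted p = 0.349).

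**Figure D2:**
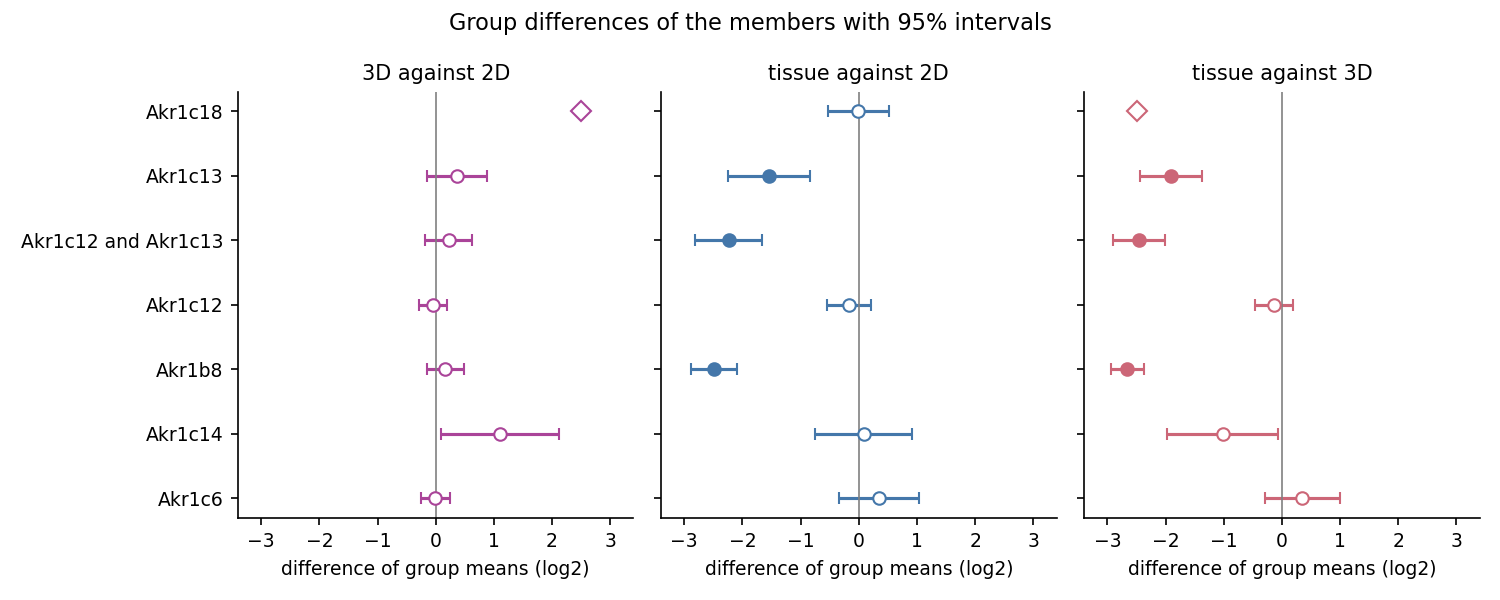
Difference of group means (log2) for each probe set in the 3 comparisons, with 95% intervals from limma. Filled points passed an adjusted p of 0.05, open points did not, and diamonds are the Akr1c18 differences given without a test. Akr1b8, Akr1c13 and the probe set shared with Akr1c12 are filled in both tissue comparisons, between -1.54 and -2.66, and no point is filled for 3D against 2D.

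No neighbour of Akr1c18 in the cluster passed between 3D and 2D, where only 0.0165% of all genes passed as higher and 0% as lower. For 3D minus 2D, Akr1c13 differed by 0.37, Akr1c19 by -0.01, Akr1c12 by -0.04, Akr1c6 by -0.01, Akr1c20 by 0.14 and Akr1c21 by 0.18. Akr1e1, the last gene of the row and a reductase of anhydrofructose, was at 8.07 to 8.70 in 2D and 8.73 to 8.92 in 3D. Its difference of 0.36 had an adjusted p of 0.362 by limma and passed only by the methods' unpaired test without adjustment. Akr1c14, on the other side of Akr1c18, had the next largest difference in the cluster.

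**Figure D3:**
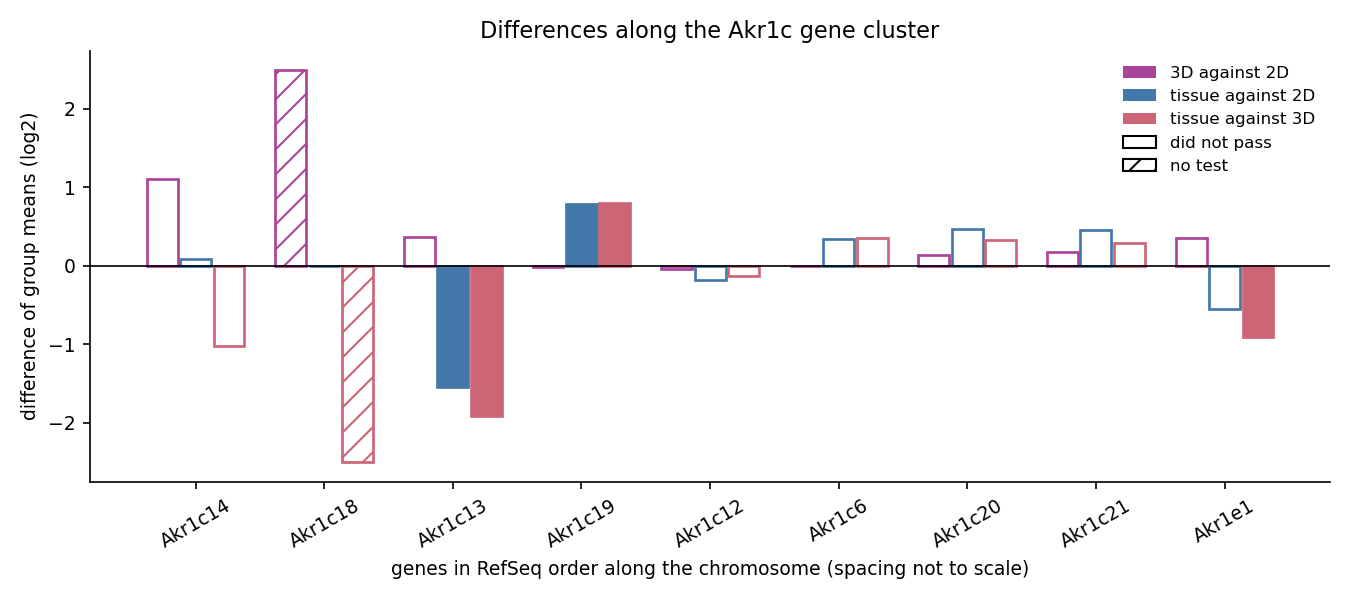
Difference of group means (log2) for the 9 aldo-keto reductase genes of the chromosome 13 cluster, in RefSeq order and not to scale. Filled bars passed an adjusted p of 0.05, open bars did not, and hatched bars were not tested. Akr1c18 is at 2.49 and -2.50 beside open bars for its neighbours in 3D against 2D, where 0.0165% of all genes passed as higher. Akr1c13 and Akr1c19, which adjoin, are filled in opposite directions in both tissue comparisons.

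Of the 14 other aldo-keto reductases listed, 12 were measured. Between 3D and 2D, 0 of 12 passed in either direction, where 0.0165% of all genes passed as higher and 0% as lower. The median difference was 0.02 against 0.01 over all genes. In tissue against 2D, 4 of 12 passed as higher and 0 as lower, where 9.87% and 14.3% of all genes did. The median was 0.41 against 0.03. In tissue against 3D, 4 passed as higher and 2 as lower, where 15.5% and 20.1% of all genes did. The median was 0.27 against 0.03. The 4 higher genes were the same in both comparisons, which share the tissue arrays. Kcnab2, a beta subunit of voltage-gated potassium channels, was higher in tissue than in 2D by 1.64 (limma adjusted p = 0.0320). Against 3D it was higher by 2.11 (adjusted p = 0.00370). Its other probe set passed against 3D only, with 0.48 (adjusted p = 0.0276). Akr1c19 was dim, at 3.90 to 4.37 in 2D, 3.82 to 4.31 in 3D and 4.44 to 5.11 in tissue. Each value was under the lower quartile of its array. The gene was higher in tissue by 0.79 and 0.80 (adjusted p = 0.0215 and 0.0107). Akr1d1, the steroid 5-beta-reductase, was higher by 0.73 and 0.75 (adjusted p = 0.0336 and 0.0215), and its other probe set, with 0.50 and 0.42, did not pass. Akr7a5, an aldehyde reductase, was higher by 1.01 and 0.98 (adjusted p = 0.0498 and 0.0391), and its other 2 probe sets did not pass.

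The 2 that were lower than in 3D were Akr1e1, by -0.91 (adjusted p = 0.00967 by limma), and Kcnab3, another channel beta subunit, by -0.55 (adjusted p = 0.0397). On the other probe set of each gene the difference was 0.03 for Akr1e1 and -0.005 for Kcnab3, and neither passed. The counts depended on single arrays. In tissue against 2D the count of 4 became 0 when 2D replicate 1, 2 or 4 or tissue replicate 2 was left out, 2 without 2D replicate 3 or tissue replicate 4, and 1 without tissue replicates 2 and 3 together. Against 3D the count of 4 fell to 2 without 3D replicate 1 or 4. The count of 2 lower genes became 1 when 3D replicate 2, 3 or 4 or tissue replicate 2 was left out. The call of Akr7a5 against 3D was lost without any 1 of the 3D replicates or tissue replicate 2, and 1 gene passed as lower than in 2D without tissue replicate 4. Akr1a1, the widely expressed aldehyde reductase, was at a mean of 13.69 in 2D, 13.70 in 3D and 13.75 in tissue on its brightest probe set. Its other probe sets gave -0.155, -0.50 and -0.53 for tissue minus 2D, and none passed. Akr1b10, next to Akr1b8 on chromosome 6, was lower in tissue than in 2D by -0.99 on its brightest probe set, with an adjusted p of 0.100 by limma, and its other 2 probe sets gave -0.31 and 0.36.

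The genes whose pattern was most like that of Akr1c18 were found by Pearson's r over the 12 arrays, which share their 3 groups, so that any gene high in 3D alone scores well. In order they were En1, a homeobox transcription factor (r = 0.937), Slc13a3, a sodium-dicarboxylate transporter (0.925), Grem1, a secreted BMP antagonist (0.916), Krtap4-16 (0.916), Asgr1 (0.916), Jade2 (0.915), Prg4, the joint lubricant lubricin (0.913), and Gm2115 (0.913). The group means of En1 were 5.08 in 2D, 8.14 in 3D and 4.32 in tissue. Those of Slc13a3 were 7.64, 10.09 and 7.94, those of Krtap4-16 were 6.41, 8.26 and 6.51, and those of Jade2 were 8.79, 9.48 and 8.96. In these genes, as in Akr1c18, 2D and tissue were near each other. Grem1 was at 6.0, 7.30 and 5.49.

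Among the relatives, r with Akr1c18 was 0.671 for Akr1c14, 0.626 for Akr1c13, 0.543 for Akr1b8, 0.227 for Akr1c12 and -0.142 for Akr1c6. Akr1c14 ranked 565 and Akr1c13 ranked 828 among all genes. After each group's mean had been subtracted, the r values were 0.261, 0.494, 0.411, 0.492 and 0.348. By that second measure the genes nearest to Akr1c18 were Ercc1 (r = 0.965), A730035I17Rik (0.963), Lyar (0.949), Mre11a (0.949), Acads (0.944), Usf2 (0.943), 1110038F14Rik (0.934) and Nes (0.929). None of these was among the 8 nearest over the 12 arrays.

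**Figure D4:**
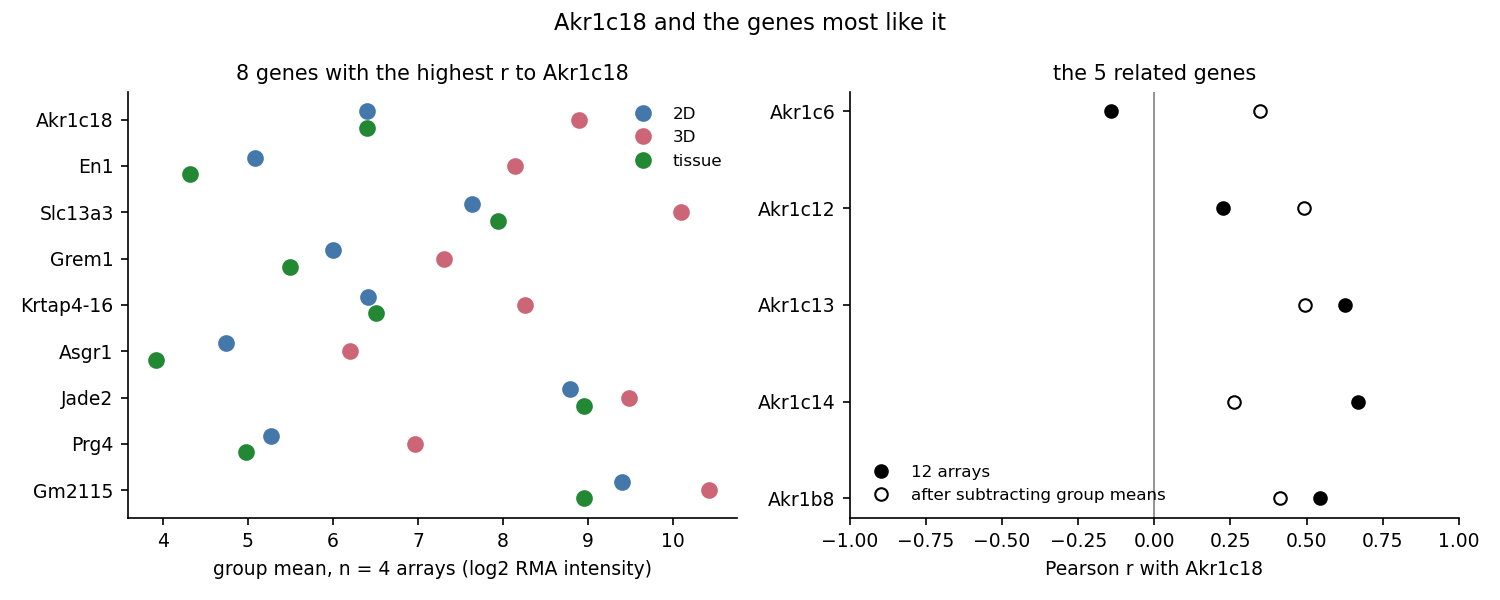
Left, group means (log2 RMA intensity, n = 4 arrays) of Akr1c18 and of the 8 genes with the highest Pearson r with it over 12 arrays. Right, Pearson r of the 5 related genes with Akr1c18 over 12 arrays (filled) and after subtracting group means (open), from -0.142 for Akr1c6 to 0.671 for Akr1c14. In all 9 genes on the left the 3D mean lies to the right of the other two.

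The wider pathways of these enzymes were followed through lists of genes. Of all genes, 9.87% passed as higher and 14.3% as lower in tissue than in 2D, and 15.5% and 20.1% against 3D. In 3D against 2D the shares were 0.0165% and 0%. The list counts below can be read against these shares, and no list was tested as a set. Of 24 steroid hormone enzymes measured, 0 passed between 3D and 2D, and the 4 with the smallest adjusted p were Hsd17b11 (0.28), Stard3 (0.33), Cyp7b1 (0.70) and Sult1e1 (0.14), none under 0.347. In tissue, 2 of 24 were higher and 1 lower than in 2D, with a list median of 0.13. Hsd17b11, a 17-beta-hydroxysteroid dehydrogenase of lipid droplets, was higher by 1.43 than in 2D (limma adjusted p = 0.00134) and by 1.15 than in 3D (adjusted p = 0.00136). Hsd17b4, which also serves peroxisomal fatty acid oxidation, was lower by -0.87 (adjusted p = 0.0138) and -1.04 (adjusted p = 0.00182). Hsd17b12 differed from 2D by -0.96 and did not pass (adjusted p = 0.0592). Hsd3b2 was dim and higher by 0.90 and 0.96 (adjusted p = 0.0239 and 0.0103). Against 3D, 4 were higher and 3 lower, with a list median of 0.20, and Hsd17b7, an enzyme of cholesterol synthesis, was higher by 0.65 (adjusted p = 0.0148).

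Those counts also shifted with single arrays. The 2 enzymes higher than in 2D became 1 when any of 2D replicates 1, 2 and 4 and tissue replicate 2 was dropped, and the 1 lower became 3 without tissue replicate 1. The 2 also became 1 without tissue replicates 2 and 3 together. Against 3D the 4 higher became 2 without 3D replicate 4, and the 3 lower became 1 without 3D replicate 2, 3 or 4 or tissue replicate 2. Hsd17b7 did not pass without 3D replicate 4 (adjusted p = 0.0542), and Hsd3b2 against 2D did not pass without the same 4 arrays that moved the count of higher enzymes.

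Among 12 steroid hormone receptors, 0 passed between 3D and 2D, where the smallest adjusted p was that of Paqr6 (difference -0.65, limma adjusted p = 0.362) and the next were Paqr5 (0.14), Paqr7 (-0.11) and Paqr8 (0.25). Tissue had 6 higher and 0 lower in each comparison, with list medians of 0.57 and 0.60. Pgr is the nuclear receptor for progesterone, the steroid that Akr1c18 inactivates. It was at 5.26 in 2D, 5.14 in 3D and 7.51 in tissue, higher in tissue by 2.25 (limma adjusted p = 0.000357) and 2.37 (adjusted p = 5.07e-05). Esr1, an oestrogen receptor, was higher by 1.46 and 1.54 (adjusted p = 0.0163 and 0.00748). Among the membrane progestin receptors, Paqr7 was higher by 1.04 and 1.15 (adjusted p = 0.0111 and 0.00361) and Paqr6 by 1.31 and 1.96 (adjusted p = 0.0201 and 0.000314). The count of 6 against 2D was 2 without 2D replicate 2 and 3 without 2D replicate 4 or tissue replicate 2, the Paqr6 call being lost in all 3 cases and the Esr1 call without 2D replicate 2. Without tissue replicate 4, 1 receptor passed as lower in each comparison. Between 3D and 2D, Pgr differed by -0.12 and did not pass.

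Some Akr1b enzymes can make prostaglandin F2-alpha, and whether Akr1b8 does so was not examined here. For prostaglandin synthesis and response, 16 genes were measured. Between 3D and 2D 0 passed, with a list median of 0.26, and 1 passed as higher without 2D replicate 4. The 4 with the smallest adjusted p there, of 0.314 or more, were Ptgfr (0.32), Pla2g4a (0.89), Prxl2b (0.68) and Ptges2 (-0.22). Tissue against 2D had 2 higher and 3 lower, and against 3D 3 higher and 5 lower. Without tissue replicates 2 and 3 together the 3 lower than in 2D became 1. Ptgs2, the inducible cyclooxygenase, was at 9.64 in 2D, 10.33 in 3D and 3.93 in tissue, lower by -5.71 (limma adjusted p = 6.35e-05) and -6.39 (adjusted p = 2.23e-06). Pla2g4a, which frees arachidonic acid, was lower by -1.65 (adjusted p = 0.0109) and -2.54 (adjusted p = 5.26e-05). Hpgd, which inactivates prostaglandins, was higher by 2.66 (adjusted p = 0.00565) and 2.43 (adjusted p = 0.00198). Ptgfr, the receptor of prostaglandin F2-alpha, was dim and higher by 0.98 and 0.66 (adjusted p = 0.00932 and 0.0187). Prxl2b, a prostamide and prostaglandin F synthase, was lower than in 3D by -1.29 (adjusted p = 0.00332). The 3 genes higher than in 3D became 1 without 3D replicate 1 or 4, and Ptgfr was lost there and without 3D replicate 3.

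Of 23 other carbonyl and aldehyde enzymes, 0 passed between 3D and 2D, the 4 nearest (adjusted p of 0.178 or more by limma) being Cbr3 (-0.73), Aldh1a1 (1.06), Dhrs3 (0.68) and Aldh1a2 (0.89). In tissue, 4 were higher and 8 lower than in 2D, and 5 higher and 9 lower than in 3D, with list medians of -0.65 and -0.73. The retinoic acid-making dehydrogenases split. Aldh1a2 was lower in tissue by -3.53 and -4.43 (limma adjusted p = 0.000504 and 1.55e-05), Aldh1a3 was lower by -2.45 and -2.68 (adjusted p = 0.00131 and 0.00108), and Aldh1a1 was higher by 2.94 and 1.87 (adjusted p = 0.00240 and 0.00335). Cbr3, a carbonyl reductase, was lower by -1.81 and -1.08 (adjusted p = 0.00121 and 0.00234), and Adh1, an alcohol dehydrogenase, was higher by 2.37 and 2.33 (adjusted p = 0.000519 and 2.84e-05). Against 3D, Adh7, another alcohol dehydrogenase, was lower by -3.17 (adjusted p = 6.08e-05) and Dhrs3, a retinal reductase, by -2.24 (adjusted p = 0.000824). The count of 8 became 5 without 2D replicate 1, 2 or 3 or tissue replicate 2, and the count of 9 became 5 without 3D replicate 1, 2 or 4.

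NRF2 is the transcription factor through which many carbonyl-reducing enzymes respond to oxidants, and 20 of its target genes outside the family were measured. Between 3D and 2D 0 passed, although the list median was -0.37. The smallest adjusted p-values, of 0.362 or more by limma, were those of Gsr (-0.41), Tkt (-0.24), Slc7a11 (-1.25) and Abcc1 (-0.55). In tissue 0 were higher and 9 lower than in 2D (list median -1.11), and 2 higher and 10 lower than in 3D (list median -0.64). Hmox1, haem oxygenase, was lower in tissue by -4.16 and -3.80 (limma adjusted p = 0.00840 and 0.000393). Mt2, a metallothionein, was lower by -2.33 and -1.52 (adjusted p = 0.00537 and 0.000435), and Taldo1 and Txnrd1 were lower than in 2D by -1.0 and -1.34 (adjusted p = 0.0114 and 0.0126). Taldo1 was lower than in 3D by -0.82 (adjusted p = 0.00632). Nqo1, a quinone reductase, was lower than in 3D by -2.08 (adjusted p = 0.000235), and than in 2D by -1.89 (adjusted p = 0.0317), a call lost without 2D replicate 2 or tissue replicate 2 or 3. The count of 9 became 4 without 2D replicate 2 or tissue replicate 2, and 3 without tissue replicates 2 and 3 together, and 1 gene passed as higher than in 2D without tissue replicate 1. Against 3D the count of 10 became 6 without 3D replicate 2 or 4, and the 2 higher became 1 without 3D replicate 1, 3 or 4 or tissue replicate 2. These lists were drawn up with earlier results of these arrays known, and their medians and counts are descriptions.

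**Figure D5:**
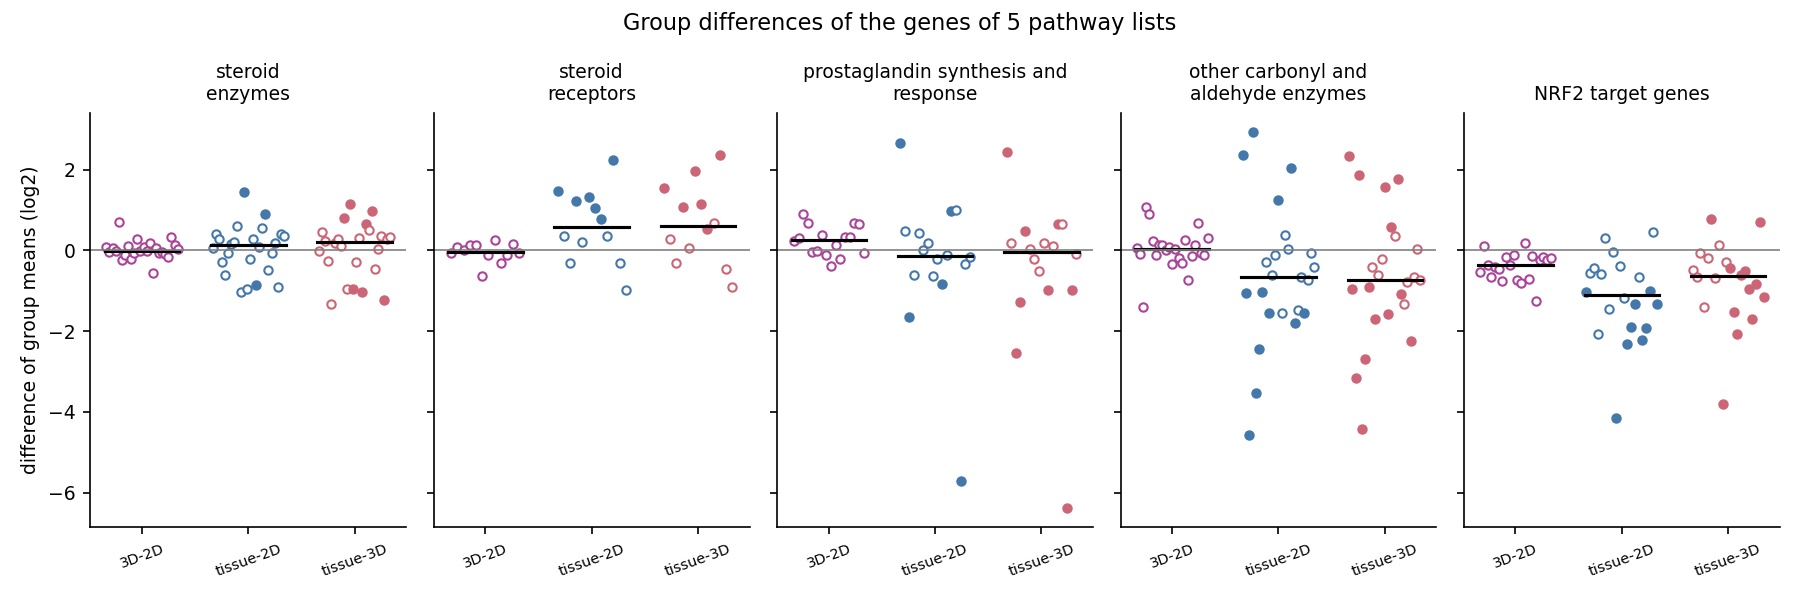
Difference of group means (log2) of every measured gene of 5 pathway lists in the 3 comparisons, with genes in alphabetical order within a column, filled points past an adjusted p of 0.05 and black lines at the list medians. No point is filled for 3D against 2D, and the lists of carbonyl and aldehyde enzymes and NRF2 targets have their medians below 0 in both tissue comparisons, at -0.65 and -0.73 and at -1.11 and -0.64.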

How the data were processed

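Total RNA of each sample was hybridised to an Affymetrix mouse array. The authors deposited 1 table of log2 intensities, made with Expression Console and RMA per the labels, with versions and genome build not given in the sources used here. The number of arrays limits the precision. Values were used as deposited, after leaving out 64 control probe sets. Of the 45037 probe sets tested, 34945 had 1 gene symbol in the platform annotation, 932 several and 9160 none. A gene with several probe sets was represented by the brightest of them on average, giving 18193 genes. For each pair of groups, lmFit and eBayes of limma 3.58.1 (R 4.3.3) were run on the 8 arrays concerned, and p-values were adjusted by Benjamini-Hochberg over all 45037 probe sets, with a threshold of 0.05. The methods state an unpaired t-test at the same threshold, which was run as an alternative.

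The members and the 14 gene lists (158 of 175 genes measured) were chosen with earlier results of these data known. Named were all members, other aldo-keto reductases past the threshold, genes with the smallest adjusted p of each list, up to 4 in a comparison, and the 8 genes nearest to Akr1c18 by each measure of r. Sox10, Cyp11a1, Akr1a1, Akr1b10 and a few second values of named genes were added after their values had been seen. Promoters were read from a RefSeq table (GRCm38.p6) and aligned with Biopython 1.88. No protein or probe sequence was used here. The labels call the replicates biological, with no word on how animals were shared between them. The p-values therefore weigh a difference against the spread between these samples, which may be less than the spread between animals. The fits were tested on simulated data.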

Additional observations from a re-analysis of the deposited data

Results flagged for a closer look

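Dixon's test for a single far value was run on 39 sets of 4 arrays (the members, the shared probe set and the other aldo-keto reductases that passed), and 2 were past its critical value. Chance alone marks about 1 in 20 sets. Kcnab2 on 3D replicate 1 was at 8.73, where the next 3D array was at 8.0. The probe set shared by Akr1c12 and Akr1c13 was at 4.85 on tissue replicate 1, where the next tissue array was at 5.60.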

How the results depend on the processing

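The 6 counts of members past the threshold, higher or lower in each comparison, stayed within 1.5 times under the 20 alternatives run for each (scaling, filters, weights, probe set rule, tests, left-out arrays). In every one 2 members were lower in tissue than in 2D, and 2 or 3 relatives were lower in tissue than in 3D. Of 351 alternative values of single members, 348 kept their side of the threshold or, for Akr1c18, stayed within 1 SD, and 24 differences past the threshold in neither setting changed sign. For 3D minus 2D, Akr1c18 ranged from 2.36 to 2.82, the highest without 2D replicate 4 and 3D replicate 1 together. That setting was run for 3D against 2D only, since it removes 1 array from the other comparisons. Of 2502 values of other named genes, 2303 held, 155 lost and 42 gained the threshold, and 2 reversed in tissue against 3D. Hsd17b7 was at -0.35 when its most variable probe set stood for it, and Gsr was at 0.31 without tissue replicates 2 and 3. The cause was not tested. Of 720 list counts, 75 fell and 39 rose by over 1.5 times. With dim probe sets left out, Akr1c6, Akr1c12 and Akr1c14 had no value, and the counts were then out of the members left.

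Whether the replicate numbers pair the samples was not settled. Deviations of same-numbered arrays correlated between -0.10 and 0.35, the highest for replicate 1 in 3D and 2D. The same number matched best for 3, 4 and 3 of 8 arrays in 3D against 2D, tissue against 2D and tissue against 3D. The lower quartiles of replicates 1 to 4 were 4.76, 4.83, 4.85 and 4.82 in 2D. In 3D they were 4.77, 4.83, 4.86 and 4.81, close to those of the same number. With the replicate block, genes called went from 3 to 0, from 4393 to 4243 and from 6475 to 6138. Under the block Akr1b8 had adjusted p-values of 0.00200 and 0.000309 in tissue against 2D and 3D, Akr1c13 of 0.0146 and 0.00382, and no call of a member changed.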
